A study of Mus musculus with 4 samples.

Results

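The 46 genes described here encode synaptic vesicle and synaptic scaffold proteins, 24 presynaptic and 22 postsynaptic. They were chosen by name from the 15091 genes that the deposited count table names, with earlier results of these data known. Of the table's 29121 accessible regions, 122 carry their names. Accessibility was measured by ATAC-seq, in which a transposase cuts open DNA and the number of sequenced tags over a region measures how accessible it is. The cells were neural progenitor cells grown as neurospheres, free-floating clusters, from the hippocampus of P0 C57BL/6 mice and harvested after 7 days with FGF-2 and EGF at 20 ng/ml each. The 2 Fgf13cko libraries came from hGFAPCre+, Fgf13 flox/y cells and the 2 control libraries from hGFAPCre+, Fgf13+/y cells. Both groups therefore carry the Cre transgene, which is driven by the human GFAP promoter, and they differ in the floxed allele of Fgf13, a gene for an intracellular FGF family protein. Cells that did not express Cre would keep the gene. Nothing in the labels tells whether different mice gave the libraries of a group, and p-values here reflect only library-to-library spread, which may be technical.

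A synapse passes a signal when calcium enters the presynaptic terminal and vesicles fuse with its membrane. Synaptotagmins sense the calcium, the SNARE proteins SNAP-25, syntaxin and synaptobrevin drive fusion, complexins clamp and assist it, and Rims, Unc13a, bassoon and piccolo build the active zone where vesicles dock. Neurexins of the presynaptic membrane bind neuroligins across the cleft, and behind the neuroligins lie the Dlg, Dlgap, Shank and Homer scaffolds and the calcium/calmodulin-dependent kinase CaMKII. These proteins act mainly in neurons. An accessible region is a property of chromatin and says nothing by itself of how much RNA or protein a gene gives.

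Tags were counted by HOMER on mm10, and each region was assigned to the gene with the nearest start site. Regions within 1 kb of the start site that HOMER gives as nearest were summed per gene as start-site regions. All others were summed separately. Of the 46 genes, 41 had a region: 35 had a start-site region, 26 had a region elsewhere and 20 had both. Start-site regions were counted for 21 of 24 presynaptic genes and 14 of 22 postsynaptic genes, and regions elsewhere for 14 and 12 genes. Syp, Sv2a, Nlgn2, Shank1 and Homer2 had none. The table's regions inside Syp, Nlgn2 and Shank1 carry the names Prickle3, Tmem256 and 1700008O03Rik, whose start sites lie nearer, and none lies inside Sv2a or Homer2. The 122 regions were 40 at start sites and 82 elsewhere. Of those 82, 70.7% lay in introns, against 46.9% of such regions of all genes. By side, 24 of 43 presynaptic and 34 of 39 postsynaptic regions were annotated as intronic, and 19 and 4 as intergenic, with no test made. Of the 19, 8 are regions of Cplx2, some of which lie inside its RefSeq gene.

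The libraries held 16776920 and 13133338 tags in Fgf13cko and 24874408 and 26021386 in control, of which 2553917 and 2628511.5 in Fgf13cko and 2782014 and 3245487 in control fell in nuclear regions of the table. Mitochondrial regions took 9.54% and 9.19% of all tags in Fgf13cko and 23.4% and 27.0% in control, so that depth, mitochondrial share and genotype cannot be told apart. The 4 regions of Fgf13 itself did not pass the test, with log2 fold changes of -0.21 and 0.00 at its start sites and 0.80 (adjusted p = 0.0986) and -0.56 elsewhere. The labels do not place the deleted part, so this does not check the deletion. Progenitor markers were open in all libraries: 11 of 12 had a start-site region and summed to 2849 and 2517 normalised tags in Fgf13cko and 2292 and 2602 in control. Of 7 microglia markers 1 had a start-site region, of 7 endothelial or pericyte markers 2, of 6 meningeal markers 2, of 8 oligodendrocyte lineage markers 4 and of 8 astrocyte markers 6, and none of these passed the test there.

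Sequences at start sites are shown for Syt1, Nrxn3, Syn1 and Syt6. Syn1 and Syt6 did not pass the test at start sites. RefSeq promoters on GRCm38.p6, 250 bases before to 50 after a start, were given for 33 of the 46 genes, 52 in all, and 25 of them overlap a start-site region of the table. Their median GC content was 60.3%, against 52.7% for the 32851 promoters of all genes. Syt1 and Nrxn3 are shown because their start-site regions rose in Fgf13cko, as given below. Camk2a also rose, but no promoter of it was given. The Cplx2 promoter that was given does not overlap its start-site region. Capitals in Syt1 mark the letters GGGCGG of a GC box, the motif bound by Sp family factors, and Nrxn3 holds none of the motifs searched. Syt1 is at chr10:109010926-109011225 on the minus strand and Nrxn3 at chr12:89812233-89812532 on the plus strand.
Syt1: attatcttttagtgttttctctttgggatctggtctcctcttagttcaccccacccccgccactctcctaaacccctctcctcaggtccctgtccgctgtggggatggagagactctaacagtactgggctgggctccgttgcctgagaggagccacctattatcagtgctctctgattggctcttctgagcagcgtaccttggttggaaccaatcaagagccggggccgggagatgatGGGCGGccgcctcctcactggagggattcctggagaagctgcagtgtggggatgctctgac
Nrxn3: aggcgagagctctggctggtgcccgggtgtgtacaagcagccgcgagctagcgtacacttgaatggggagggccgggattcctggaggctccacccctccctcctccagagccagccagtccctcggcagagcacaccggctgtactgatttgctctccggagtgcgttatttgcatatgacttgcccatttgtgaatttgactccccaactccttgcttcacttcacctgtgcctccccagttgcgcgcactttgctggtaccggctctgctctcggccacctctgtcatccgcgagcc
Syn1 and Syt6 are shown because they hold a sequence match to the RE1. The RE1 is the element bound by the repressor REST, which is known for holding neuronal genes silent outside neurons. Binding of REST was not measured here. The RE1 was searched as TTCAGCACC, 2 free bases and GGACAGCGC, with at most 4 of the 18 letters different, and capitals mark the match. Syn1 is at chrX:20920869-20921168 on the minus strand, and its match has 2 differences. Syt6 is at chr3:103575876-103576175 on the plus strand, and its match lies on the other strand with 4 differences, the most allowed.
Syn1: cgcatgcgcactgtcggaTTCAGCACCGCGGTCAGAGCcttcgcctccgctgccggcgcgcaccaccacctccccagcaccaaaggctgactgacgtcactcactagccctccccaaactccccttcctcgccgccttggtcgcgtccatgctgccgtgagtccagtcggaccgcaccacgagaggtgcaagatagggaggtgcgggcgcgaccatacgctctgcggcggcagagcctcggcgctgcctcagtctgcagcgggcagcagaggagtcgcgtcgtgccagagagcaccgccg
Syt6: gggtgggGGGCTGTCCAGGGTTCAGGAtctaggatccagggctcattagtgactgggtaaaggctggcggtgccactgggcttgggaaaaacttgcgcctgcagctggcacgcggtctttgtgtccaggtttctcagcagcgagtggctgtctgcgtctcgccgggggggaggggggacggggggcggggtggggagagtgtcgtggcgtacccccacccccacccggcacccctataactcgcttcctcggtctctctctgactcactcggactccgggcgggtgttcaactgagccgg
All motifs were searched on both strands, and the matches of different motifs were counted separately where they overlap. An RE1 match was found in 2 of the 52 promoters (3.85%) and in 0.481% of all promoters. The GC box was in 29 (55.8%), against 35.7% of all promoters, the AP-1 motif TGANTCA in 3 (5.77%), against 7.81%, and the cyclic AMP element TGACGTCA in 1, that of Syn1, against 1.79%. By side, the GC box was in 17 of 24 presynaptic and 12 of 28 postsynaptic promoters.

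At their start sites, 3 of the 35 genes measured rose in Fgf13cko and 0 fell. They were Camk2a and the presynaptic genes Nrxn3 and Syt1, with rises of 0.95 to 1.41 on the log2 scale. Among all 11116 genes tested 1.95% rose and 0.477% fell, by edgeR's quasi-likelihood test with Benjamini-Hochberg adjustment at 0.05. The members were chosen with earlier results known, so this contrast is a description only. Both Fgf13cko libraries lay above both controls for 13 of the 35 genes, against 26.1% of all genes, and below both for 7, against 25.2%. In such bulk cultures, a larger share of cells with an open region and a more open region in each cell cannot be told apart. The plot of start-site tags by library shows every gene.

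**Figure D1:**
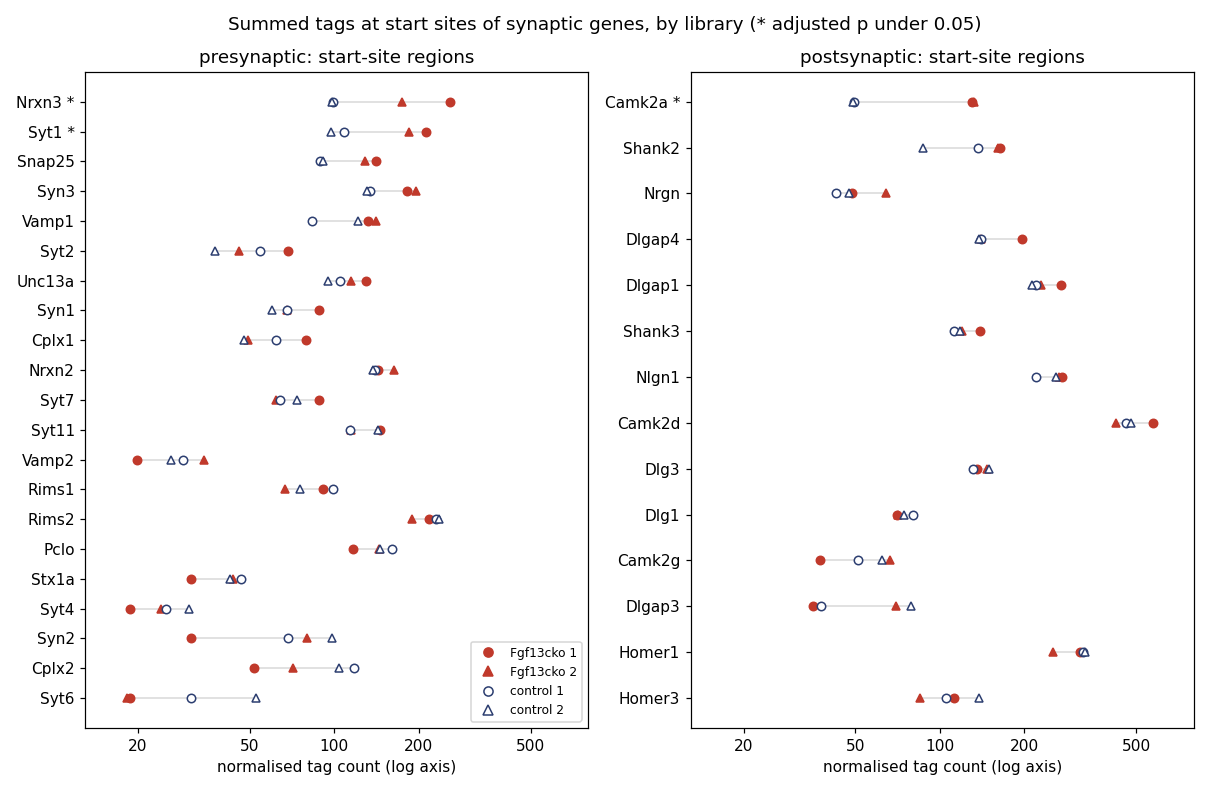
Normalised tag counts summed over start-site regions (log axis) for 21 presynaptic and 14 postsynaptic genes, ordered by fold change; filled symbols are Fgf13cko libraries and open symbols control libraries, circles replicate 1 and triangles replicate 2. Camk2a, Nrxn3 and Syt1 have both Fgf13cko libraries well above both controls, and for 15 of the 35 genes the groups overlap.

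Synaptotagmin 1 (Syt1) is the calcium sensor of fast vesicle release. Its start-site region held 212 and 184 normalised tags in the Fgf13cko libraries, against 108 and 97.5 in the controls. Both Fgf13cko libraries were higher, a log2 fold change of 0.95 ± 0.17 (SE; adjusted p = 0.0161). The other synaptotagmins did not pass. Syt6 was in the opposite direction, with 18.7 and 18.3 tags in Fgf13cko and 30.9 and 52.4 in control, a log2 fold change of -1.17 ± 0.41 (adjusted p = 0.149). This is a shallow region, and its controls differ from each other more than its Fgf13cko libraries do. Syt2, Syt4, Syt7 and Syt11 lay between -0.38 and 0.32. Syt7 serves slower, asynchronous release, and Syt4 and Syt11 are synaptotagmins that do not bind calcium in the usual way.

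Of the vesicle proteins, the synapsins tether vesicles to each other. Syn3 had 181 and 196 tags in Fgf13cko and 134 and 131 in control, with no overlap, a log2 fold change of 0.50 ± 0.16 (adjusted p = 0.115). Syn1, whose promoter carries the RE1 match shown above, had 88.2 and 67.6 in Fgf13cko and 67.7 and 59.8 in control, and its groups overlap narrowly. Syn2 had 30.9 and 80.2 in Fgf13cko, against 68.7 and 98.3 in control. Its Fgf13cko libraries stand further apart than the group means do.

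Among SNARE proteins and complexins no summed count passed. Complexin 2 (Cplx2) had 51.8 and 71.0 tags in Fgf13cko and 117 and 104 in control, a log2 fold change of -0.85 ± 0.22 (adjusted p = 0.0681). Both Fgf13cko libraries were below both controls. This sum passed with a loess offset (adjusted p = 0.0476), at a mean of at least 50 counts (adjusted p = 0.0484) and without Fgf13cko replicate 2 (adjusted p = 0.000347), and its 1 region passed in the test of single regions given below. Snap25, the plasma membrane SNARE, had 141 and 128 in Fgf13cko and 89.0 and 90.9 in control, a log2 fold change of 0.58 ± 0.18 (adjusted p = 0.113). Vamp1 had 0.41, Cplx1 0.24, Vamp2 -0.03 and Stx1a -0.26 as log2 fold changes. Vamp2, the main vesicle SNARE of the forebrain, was among the shallowest regions, with 19.8 and 34.4 tags in Fgf13cko and 29.0 and 26.2 in control.

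None of the active zone genes passed. Unc13a, which primes vesicles, had 130 and 115 tags in Fgf13cko and 104 and 95.0 in control, a log2 fold change of 0.30 ± 0.19 (adjusted p = 0.411). Rims1, Rims2 and Pclo had -0.13, -0.20 and -0.22. Bsn had no start-site region. Of the neurexins, Nrxn3 had 259 and 174 tags in Fgf13cko and 98.6 and 98.3 in control, a log2 fold change of 1.14 ± 0.20 (adjusted p = 0.0159). The controls were almost equal and the Fgf13cko libraries differed from each other, both being higher. Nrxn2 had a log2 fold change of 0.14 (adjusted p = 0.681).

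On the postsynaptic side 1 gene passed. Camk2a encodes the alpha subunit of CaMKII and is a gene of mature excitatory neurons. Its only start-site region in the table lies 37.8 kb inside the gene, at an internal start, and not at the gene's outer start. That region had 130 and 132 tags in Fgf13cko and 49.3 and 49.1 in control. Each pair was nearly equal, and the log2 fold change was 1.41 ± 0.20 (adjusted p = 0.00661). Camk2d and Camk2g, the more widely expressed subunits, had 0.09 and -0.13, and Nrgn, the calmodulin-binding neurogranin, 0.32. Shank2, a scaffold under the glutamate receptors, had 164 and 162 in Fgf13cko and 136 and 86.8 in control, with no overlap, a log2 fold change of 0.56 ± 0.21 (adjusted p = 0.181). Shank3 had 0.17.

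None of the remaining postsynaptic genes passed. Dlgap4 had 196 and 140 tags in Fgf13cko and 140 and 138 in control, where 1 Fgf13cko library stands apart, a log2 fold change of 0.28 ± 0.19 (adjusted p = 0.454). Homer3, whose product links metabotropic receptors to the scaffold, had 112 and 84.8 in Fgf13cko and 105 and 138 in control (-0.31 ± 0.21, adjusted p = 0.463). The groups overlap for both. Nlgn1 had 271 and 265 in Fgf13cko and 220 and 259 in control, a log2 fold change of 0.16 ± 0.15 (adjusted p = 0.611). Dlg1 had 70.5 and 71.0 in Fgf13cko and 80.2 and 74.5 in control (-0.13 ± 0.21, adjusted p = 0.797). Dlg3, Dlgap1, Dlgap3 and Homer1 lay between -0.20 and 0.20 on the log2 scale.

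All 3 calls rest on both control libraries. Without control replicate 1 the adjusted p was 0.226 for Camk2a, 0.456 for Nrxn3 and 0.456 for Syt1, and without control replicate 2 it was 0.491, 0.538 and 0.540; in those fits no gene of the 11118 or 11119 tested passed, with 843 and 806 at an unadjusted p under 0.05. The fold changes themselves hardly moved, to 1.41 and 1.40 for Camk2a, 1.14 and 1.13 for Nrxn3 and 1.02 and 0.86 for Syt1. Without Fgf13cko replicate 1 there were 5 calls among the 35 genes, where 1143 of all 11118 genes passed, and without Fgf13cko replicate 2 there were 10, where 2761 of 11121 did. Syt1 also missed the threshold when all nuclear regions set the scaling (adjusted p = 0.0623). That scaling puts the median of all genes at -0.10 and changes the share of higher calls among all genes from 80.4% to 54.5%.

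The presynaptic and the postsynaptic genes had close medians at start sites. Mean tags were higher in Fgf13cko for 12 of 21 presynaptic and 9 of 14 postsynaptic genes, and the median log2 fold changes were 0.12 and 0.12, against -0.01 for all genes. No test was made of this, because the genes were chosen with results known. Away from start sites the medians were 0.02 for 14 presynaptic and 0.16 for 12 postsynaptic genes, against 0.01 for all 8441 genes tested. Presynaptic genes ranged there from -1.40 (Rims2, a sum of few tags; next Bsn at -0.47) to 0.41 (Nrxn3), and postsynaptic genes from -0.50 (Dlgap4) to 0.65 (Dlgap2). The difference of the medians, presynaptic minus postsynaptic, was 0.002 at start sites and -0.14 elsewhere. Another setting moved each to the other side of 0: the first was -0.10 without Fgf13cko replicate 1, and the second was 0.007 with a loess offset.

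**Figure D2:**
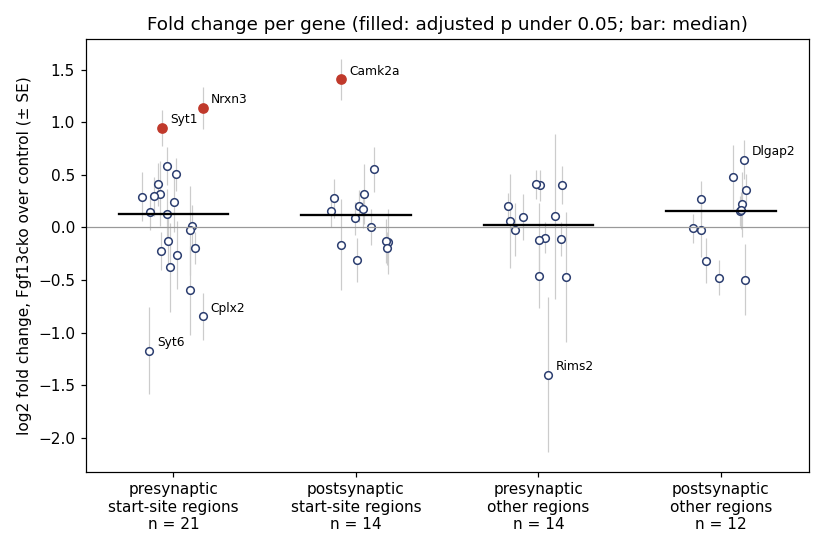
Log2 fold change, Fgf13cko over control, with its standard error for each gene (1 point a gene), at start-site regions and at other regions, split into presynaptic and postsynaptic genes; bars mark medians and filled points an adjusted p under 0.05. The start-site medians of both sides lie at 0.12, and the filled points are Syt1, Nrxn3 and Camk2a.

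Summed over regions away from start sites, 0 of 26 genes passed edgeR's test, where 8.41% of all genes rose and 3.73% fell. There were 5 of the 26 at an unadjusted p under 0.05, against 2416 of all 8441 genes. DESeq2's Wald test also called 0 of the 26. Both Fgf13cko libraries lay above both controls for 7 genes and below both for 7, against 31.7% and 27.7% of all genes. Dlgap2, which encodes a partner of the Dlg scaffold, had 245 and 205 tags in Fgf13cko and 132 and 155 in control, a log2 fold change of 0.65 ± 0.19 (adjusted p = 0.0590). Nrxn3 had 1091 and 956 in Fgf13cko and 749 and 789 in control (0.41 ± 0.14, adjusted p = 0.0861). Both genes have their groups apart, and both passed when all nuclear regions set the scaling, with adjusted p of 0.0348 and 0.0212. Nlgn3, a neuroligin gene of the X chromosome, had 177 and 165 in Fgf13cko and 224 and 252 in control (-0.48 ± 0.17, adjusted p = 0.103), and it passed with a loess offset.

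The other role groups gave no call either. Snap25 had 490 and 350 tags in Fgf13cko and 317 and 314 in control (0.41 ± 0.18, adjusted p = 0.183). Dlg4, which encodes PSD-95, had 443 and 370 in Fgf13cko and 293 and 380 in control (0.27 ± 0.18, adjusted p = 0.360). The groups are apart for Snap25 and overlap for Dlg4. Syt6 had 46.9 and 83.0 in Fgf13cko and 90.8 and 90.3 in control, and Syn3 had 235 and 241 in Fgf13cko and 258 and 251 in control. Shank2 had 93.8 and 95.6 in Fgf13cko and 105 and 131 in control, below the controls here although above them at its start sites. Camk2b had 102 and 201 in Fgf13cko and 102 and 117 in control, so that 1 Fgf13cko library alone sets its log2 fold change of 0.48, which is -0.10 without Fgf13cko replicate 2. Rims2 had 2.35 and 17.4 in Fgf13cko and 28.0 and 26.5 in control, a log2 fold change of -1.40 ± 0.74 (adjusted p = 0.251). Its Fgf13cko libraries are far apart, and without Fgf13cko replicate 2 the sum passed (-3.46).

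Start sites and other regions of a gene need not move together. Over the 20 genes with both, the 2 log2 fold changes had the same sign in 11, with Pearson's r = 0.34 and Spearman's rho = 0.33, given as a description since both come from the same 4 libraries. Of the genes that rose at their start sites, Nrxn3 had 0.41 elsewhere, Camk2a 0.22 and Syt1 0.10. Cplx2 had -0.85 at its start site and 0.20 elsewhere. For Nrxn3 and Cplx2 the sum elsewhere includes the region at the outer RefSeq start, as given below.

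The sums hide regions that differ. Of the 81 single regions away from start sites that could be tested, 7 rose and 0 fell, 8.64% against a background of 8.74% higher and 2.43% lower among all such regions. The share of members is therefore near that of all genes. At start sites 3 of 40 single regions rose and 1 fell, against 1.15% and 0.821%. The 11 regions lie in Nrxn3 (3), Nlgn1 and Cplx2 (2 each), and Dlgap2, Camk2d, Camk2a and Syt1 (1 each). The plot of single regions by gene shows how they spread within the genes with most regions.

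**Figure D3:**
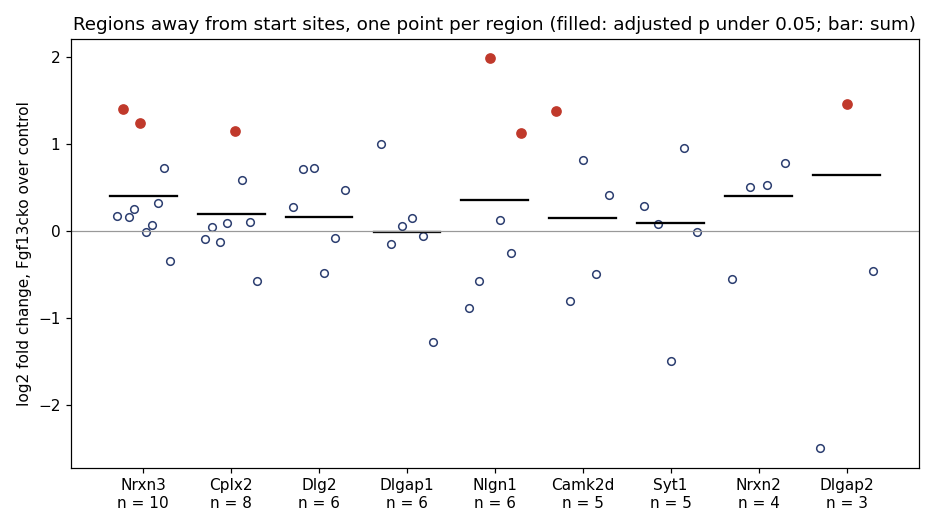
Log2 fold change, Fgf13cko over control, of each region away from start sites in the 9 genes with at least 3 of them; points follow chromosome position from left to right within a gene, filled points have an adjusted p under 0.05 and bars give the fold change of the gene's sum. In Nlgn1, Dlgap2 and Camk2d, regions with a rise past the threshold stand beside regions below 0.

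The region with the highest rise lies in an intron of Nlgn1, the neuroligin of excitatory synapses. It is at chr3:25844390-25845286 on mm10, in intron 4 of the transcript used by HOMER and 309 kb from the nearest start. It held 109 and 118 normalised tags in Fgf13cko and 29.5 and 27.5 in control. Both groups were tight, and the log2 fold change was 1.99 ± 0.24 (adjusted p = 0.00451). A second Nlgn1 region, in intron 1 at chr3:26270732-26271462, held 83.9 and 127 in Fgf13cko and 43.2 and 53.3 in control (1.13 ± 0.27, adjusted p = 0.0420). The other 4 tested regions of the gene away from its starts lay between -0.88 and 0.13, and the 2 at its starts were -0.15 and 0.21.

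Dlgap2 and Camk2d each had 1 intronic region that rose. In Dlgap2 it was chr8:14380986-14383159, in intron 3 and 286 kb from the start, with 197 and 167 tags in Fgf13cko and 60.9 and 70.6 in control (1.46 ± 0.21, adjusted p = 0.00626). The other 2 regions of that intron were lower, at -2.50 (2.27 and 2.09 tags in Fgf13cko, 12.8 and 12.9 in control) and -0.46, and neither passed. In Camk2d it was chr3:126638540-126639631, in intron 2 and 42.1 kb from the start, with 156 and 123 in Fgf13cko and 53.0 and 54.2 in control (1.38 ± 0.22, adjusted p = 0.00963). Its start-site region held far more tags, 590 and 386 in Fgf13cko and 468 and 503 in control, with a log2 fold change of 0.01. The rise in Camk2d was thus measured in an intron of a gene whose start did not pass.

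Neurexin genes are very long and make long and short neurexins from separate promoters. Nrxn3 spans 1612 kb, and its only start-site region in the table, chr12:89811679-89812983, lies 1089 kb inside the RefSeq gene at an internal start, the one whose sequence is shown above. As a single region it held 267 and 159 tags in Fgf13cko and 100 and 103 in control (1.06 ± 0.26, adjusted p = 0.0427). Over all alternatives its log2 fold change ranged from 0.64 to 1.43. The 2 intronic regions that rose are chr12:88800622-88801649 in intron 1, with 188 and 133 in Fgf13cko and 48.1 and 72.3 in control (1.41 ± 0.27, adjusted p = 0.0167), and chr12:89289665-89291552 in intron 7. The intron 7 region held 217 and 144 in Fgf13cko and 78.6 and 73.1 in control (1.25 ± 0.24, adjusted p = 0.0176). Fgf13cko replicate 1 was the higher of its group in all 3. Of the 10 Nrxn3 regions away from start sites 8 were higher in Fgf13cko. The region over the gene's outer RefSeq start, chr12:88722552-88723270, is among these 10, since HOMER's nearest start is over 1 kb away. It had a log2 fold change of 0.18.

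Cplx2 regions moved in opposite directions. The start-site region used by HOMER, chr13:54371384-54372181, held 53.3 and 64.7 tags in Fgf13cko and 119 and 109 in control (-0.95 ± 0.22, adjusted p = 0.0356). A region 47.2 kb upstream of it, chr13:54323690-54324606, held 156 and 154 in Fgf13cko and 70.7 and 68.8 in control (1.16 ± 0.19, adjusted p = 0.0108). Each region has its groups fully apart. RefSeq on GRCm38.p6 starts the gene at 54301964, so both regions lie inside it. The region at that outer start, chr13:54302574-54303917, was summed with those away from start sites, since HOMER's nearest start is over 1 kb away. It was close to level with 113 and 93.9 in Fgf13cko and 112 and 114 in control (-0.12 ± 0.20, adjusted p = 0.771 in edgeR's test).

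**Figure D4:**
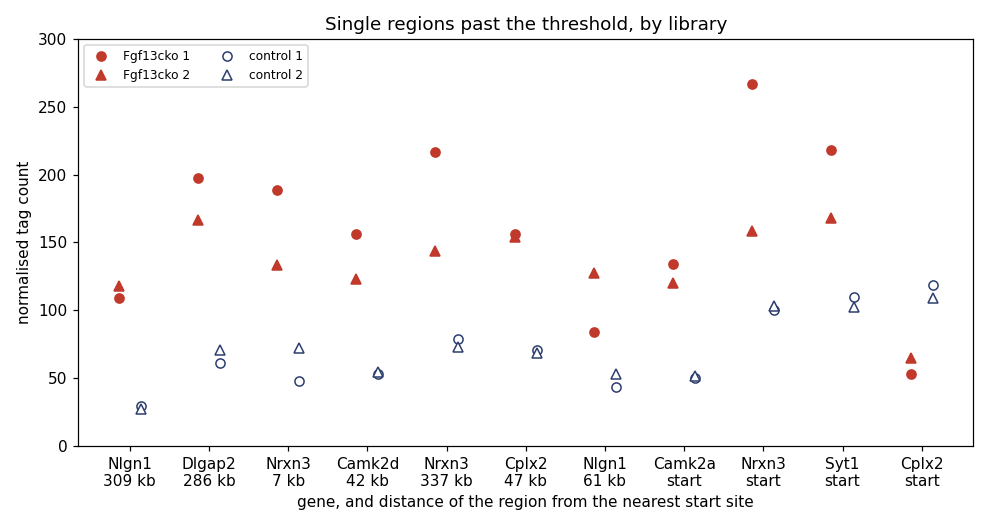
Normalised tag counts (linear axis from 0) of the 11 single regions past an adjusted p of 0.05, by library, with Fgf13cko filled and left of control in each column; the label gives the gene and the distance to the nearest start site. Of these, 10 have both Fgf13cko libraries above both controls, and the Cplx2 start-site region has both below.

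Some of the start-site regions that passed lie at internal starts. Of the 40 start-site regions, 12, in 11 genes, lie inside the RefSeq gene and over 5 kb from both its ends, 4 presynaptic and 8 postsynaptic. Of the 4 start-site regions past the threshold 3 are of this kind: Nrxn3, Cplx2 and Camk2a, whose region chr18:60963064-60963993 lies 37.8 kb inside the gene. Syt1 is the exception, with its region chr10:109010559-109011769 at the outer end of the gene. This split was made after the values were seen and has no test. It was made for the members only, so no share over all genes stands beside it. The region 3.5 kb upstream of the outer Camk2a start, chr18:60921800-60922427, held 61.3 and 104 tags in Fgf13cko and 53.0 and 49.9 in control (0.69 ± 0.30, adjusted p = 0.211).

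Most single-region calls also end without either control. Without control replicate 1 there was 1 call among the 121 member regions, the Nlgn1 region of intron 4, and without control replicate 2 there were 0, while 387 and 138 of all regions passed. Its log2 fold change ranged from 1.89 to 2.04 over all alternatives, that of the Dlgap2 region from 1.34 to 1.62 and that of the Camk2a region from 1.20 to 1.43. Without Fgf13cko replicate 1 there were 30 calls, where 7012 of all 28843 regions passed, and without Fgf13cko replicate 2 there were 41, where 10120 of 28848 did. DESeq2's Wald test did not call the start-site regions of Syt1 (adjusted p = 0.0635) and Cplx2 (adjusted p = 0.129) or the intron 1 region of Nlgn1 (adjusted p = 0.0805), and the last was also lost with library size alone as the scaling (adjusted p = 0.0571).

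Away from start sites, wider regions had higher fold changes. Over the 81 tested member regions away from start sites, the log2 fold change and the log2 of the width had a Pearson's r of 0.51, against 0.37 over all 17359 such regions, as a description across regions of the same 4 libraries. Of 21 member regions of at least 900 bases 18 were higher in Fgf13cko, and of 43 under 700 bases 21 were. At start sites r was 0.20 over the 40 member regions, 0.33 over the 22 presynaptic and -0.02 over the 18 postsynaptic ones. Over all 11449 start-site regions r was 0.35, with 46.5% of the wide and 17.6% of the narrow regions higher. All 3 rises of members at start sites are in regions of at least 900 bases. Away from start sites all genes show the same order as the members, with 72.8% of the wide and 35.9% of the narrow regions higher. Of the 7 rises away from start sites, 5 are in such wide regions, the narrowest of them that of Cplx2 (917 bases). The 2 in Nlgn1 are 897 and 731 bases wide. Fgf13cko replicate 1 was the lowest of the 4 libraries in 34 of the 81 regions (42.0%), against 40.5% of all regions; by side it was lowest in 23 of 42 presynaptic and 11 of 39 postsynaptic regions. The part of width and of this library in the fold changes was not tested.

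**Figure D5:**
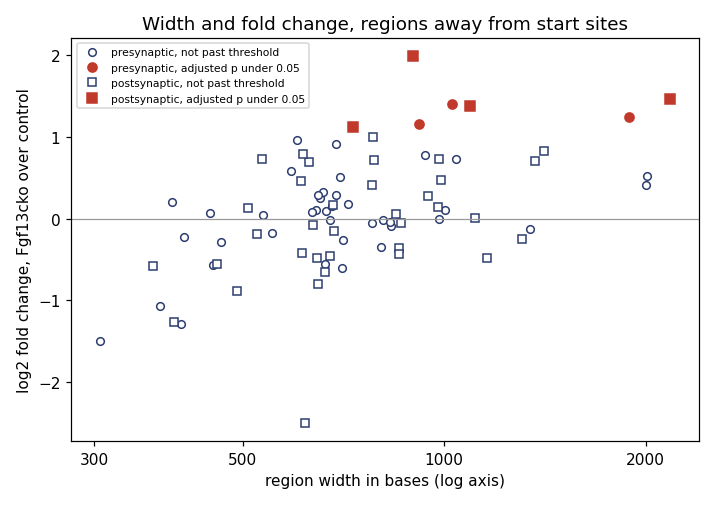
Log2 fold change, Fgf13cko over control, against region width in bases (log axis) for the 81 tested regions away from start sites, circles presynaptic and squares postsynaptic, filled where the adjusted p is under 0.05. Of the 43 regions under 700 bases 21 lie above 0, and of the 21 regions of at least 900 bases 18 do.

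The levels themselves set how firmly each gene can be read. At start sites the 35 genes had Fgf13cko means from 18.5 to 499 normalised tags, with a median of 130, and control means from 27.6 to 470, with a median of 99.7; the median over all genes was 108 in Fgf13cko and 106 in control. Per kb of region, Camk2d was the most open of them, with 275 tags per kb in Fgf13cko and 259 in control, and Syt6 was among the least, with 17.8 and 40.1. The Fgf13cko libraries differed from each other more than the controls did: the median gap within a pair was 0.34 on the log2 scale in Fgf13cko and 0.16 in control, and it was wider in Fgf13cko for 28 of 35 genes. Over all genes the gap was 0.25 in Fgf13cko and 0.16 in control, and it was wider in Fgf13cko for 7249 of 11116. Away from start sites the members' gap was 0.19 in Fgf13cko and 0.16 in control, wider in Fgf13cko for 17 of 26.

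A pair of immature neuron markers rose beside the synaptic genes. Of 12 immature neuron markers 7 had a start-site region, and their tags summed to 1079 and 1066 in Fgf13cko and 740 and 781 in control. Elavl4 rose by a log2 fold change of 1.02 (adjusted p = 0.00711) and Map2 by 0.79 (adjusted p = 0.0450), while Stmn1, Nefl, Nefm, Tubb3 and Gap43 lay between -0.33 and 0.50 and did not pass. The remaining markers of this list, Dcx, Stmn2, Rbfox3, Elavl3 and Ncam1, had no start-site region. Among the progenitor markers Fabp7 rose by 0.81 (adjusted p = 0.0237) and Nes by 0.80 (adjusted p = 0.0492). Thus 2 of 7 immature neuron and 2 of 11 progenitor markers passed at start sites, where 1.95% of all genes rose. The marker lists were also chosen with earlier results known, so these shares are descriptions only. Away from start sites the immature neuron markers summed to 1065 and 1191 in Fgf13cko and 1066 and 1115 in control, and by edgeR's test 0 of 6 passed (1 at an unadjusted p under 0.05). Their log2 fold changes ranged from -0.92 to 0.33 with a median of -0.30. For 3 of the 6 both Fgf13cko libraries lay below both controls, against 27.7% of all genes. Of the other lists away from start sites, 2 of 11 progenitor markers rose and 1 fell, and 1 of 5 astrocyte markers rose and 1 fell. In the oligodendrocyte lineage list 1 of 6 rose. Among all genes 8.41% rose and 3.73% fell there. The part of the neuron content of the cultures in the synaptic rises was not tested.

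Other synaptic genes were read from lists of 70 presynaptic and 65 postsynaptic genes, also chosen with earlier results known. At start sites 0 of 47 presynaptic genes measured passed by edgeR's test (11 at an unadjusted p under 0.05, against 2143 of all 11116 genes), and 2 of 51 postsynaptic genes rose, 3.92% against the 1.95% of all genes given above. Neto1, which encodes an auxiliary subunit of kainate receptors, had 317 and 234 tags in Fgf13cko and 155 and 128 in control (0.97 ± 0.19, adjusted p = 0.0221). Arc, an immediate early gene of active neurons, had 277 and 212 in Fgf13cko and 126 and 134 in control (0.91 ± 0.17, adjusted p = 0.0221). Both have their groups apart, and neither passed without control replicate 1 or control replicate 2, where 0 of these genes did, or with scaling from all nuclear regions.

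Away from start sites 4 of 34 other presynaptic genes rose and 2 fell, and 5 of 48 postsynaptic genes rose and 3 fell, which is 11.8% and 5.88% of the presynaptic genes and 10.4% and 6.25% of the postsynaptic genes, against the 8.41% and 3.73% of all genes given above. Syt10, another synaptotagmin, had 75.1 and 81.1 tags in Fgf13cko and 29.0 and 19.5 in control (1.69 ± 0.32, adjusted p = 0.0162). It rose with its groups apart. Sypl, a relative of synaptophysin, fell, with 34.0 and 46.3 in Fgf13cko and 95.8 and 92.9 in control (-1.22 ± 0.28, adjusted p = 0.0277).

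On the postsynaptic side Sipa1l2 had 1027 and 977 tags in Fgf13cko and 475 and 558 in control (0.95 ± 0.14, adjusted p = 0.00769), and Begain, which binds the Dlg scaffold, had 244 and 236 in Fgf13cko and 120 and 106 in control (1.09 ± 0.18, adjusted p = 0.0101). Camk4, a kinase of the CaMK family, fell, with 52.8 and 61.8 in Fgf13cko and 136 and 126 in control (-1.18 ± 0.22, adjusted p = 0.0159). Lrrc4c, a synaptic adhesion gene, had 6996 and 7187 tags in Fgf13cko and 21866 and 17641 in control (-1.48 ± 0.16, adjusted p = 0.00374). That level is far above the other sums, and the mitochondrial share given above is also lower in Fgf13cko; its part in this value was not tested. Of the 82 other synaptic genes tested there, 2 passed without control replicate 1 and 2 without control replicate 2, while 28 passed without Fgf13cko replicate 1, where 2521 of all 8455 genes did, and 34 without Fgf13cko replicate 2, where 3819 of 8454 did.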

How the data were processed

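The data are 4 ATAC-seq libraries, 2 Fgf13cko and 2 control, grouped and numbered by their titles. The authors deposited estimated counts, per the file headers raw HOMER tag counts on mm10 without normalisation, for 29121 merged broad peaks, and 1 peak list per library, in which the -log10 p and q, the fold enrichment (a ratio) and the score of each peak are the authors'. HOMER, MACS2, Bowtie2, Picard and DESeq2 are listed, without versions, in the submitters' processing notes; the transposase shift and duplicate removal are not stated there. The deposited estimated counts come in steps of 0.5, and 50.2% of them are whole.

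Counts were summed per gene within 1000 bases of a start site and elsewhere, rounded and tested across all genes with edgeR 4.0.16 (R 4.3.3; filterByExpr, TMM, robust quasi-likelihood, Benjamini-Hochberg, threshold 0.05), limma 3.58.1 being loaded with it. The 29119 nuclear regions were tested singly in the same way; 1 Rims2 region at low counts was not tested. The 2 mitochondrial regions, and in the gene sums 7 nuclear regions that name no gene (0.0202% to 0.0498% of nuclear tags), were left out. Normalised tags are counts divided by the effective library size over its geometric mean. On simulated counts the fit was tested before use. Each group has 2 libraries, and this number limits precision. Alternatives were DESeq2 1.42.0, other scalings, filters, windows and left-out libraries. All 46 genes matched RefSeq on GRCm38.p6, the assembly of mm10.

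The members, the role groups and the other gene lists were chosen with earlier results of these data known. Genes named were those past the threshold, the gene with the smallest p in each role group and fit, and at most 4 other synaptic genes per list and fit, of which some are not reported here; further members are given by fold change. Start-site and internal-start splits, the width limits of 900 and 700 bases and the marker genes singled out were chosen after values were seen.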

Additional observations from a re-analysis of the deposited data

Results flagged for a closer look

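The separate peak lists are not used in the comparisons above. In them, 69 peaks inside member genes (gene body and 1 kb on either side) were present in both Fgf13cko lists and overlapped no control peak, while 11 were present in both control lists and in neither Fgf13cko list. The 69 are 19.3% of the member peaks of Fgf13cko replicate 1, against 15.4% for all genome peaks of that list, and the 11 are 5.67% of those of control replicate 1, against 3.89%. The same imbalance holds over all peaks, with 9988 in both Fgf13cko lists only and 1478 in both control lists only, so that it is not particular to these genes. The 69 lie in 25 genes, 27 in presynaptic and 42 in postsynaptic genes. Nrxn3 held 12, Dlg2 11 and Dlgap1 5 of them. These are long genes, of 1612235, 1973059 and 852341 bases, and the part of length in these counts was not tested. In all, the member genes held 357 and 298 peaks in the Fgf13cko lists and 194 and 242 in the control lists, where all lists hold 64954 and 54373 in Fgf13cko and 38006 and 47148 in control. Nrxn3 had 46 and 30 peaks in Fgf13cko and 14 and 18 in control, and Dlg2 had 35 and 27 in Fgf13cko and 13 and 16 in control. Bsn, the active zone gene of bassoon, had 6 and 5 peaks in Fgf13cko and 0 and 1 in control. Its summed tags in the count table did not rise. They were 16.4 and 116 in Fgf13cko and 103 and 84.9 in control, with overlapping groups and a log2 fold change of -0.47. Of the 5 genes without a region in the count table, Homer2 alone holds such peaks, 3 in both Fgf13cko lists only and 1 in both control lists only. In all it had 4 and 5 peaks in Fgf13cko and 1 and 2 in control. Shank1 had 5 and 4 in Fgf13cko and 1 and 3 in control, Syp 2 and 2 in Fgf13cko and 1 and 2 in control, Sv2a 2 and 0 in Fgf13cko and 0 and 1 in control, and Nlgn2 1 in each list. These are counts of peaks called separately in each library, with no test of the difference, and they move with the number of peaks called.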

How the results depend on the processing

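Of the settings tried on single genes and regions, 376 values kept direction and side of the threshold, 24 passed only under the alternative, 32 no longer passed and 1 reversed, the Camk2b sum away from start sites (0.48; 0.82 without Fgf13cko replicate 1 and -0.10 without Fgf13cko replicate 2). The 3 start-site calls became 0 to 10 when 1 library was left out. The 0 calls away from start sites became 3 with scaling from all nuclear regions, 1 with a loess offset, 1 at a mean of at least 50 counts, 1 with regions within 100 kb only, 3 with the crossed block, and 0 to 10 with 1 library left out. The 11 single regions became 0 to 41 with 1 library left out. The 2 start-site calls among other synaptic genes became 4 with library size only, 0 with nuclear scaling, 7 with a loess offset, 7 at a mean of at least 50 counts, 5 with the replicate block, 8 with the crossed block and 0 to 30 with 1 library left out; the 14 elsewhere became 2 to 34. The difference of the medians, presynaptic minus postsynaptic, was 0.12 at start sites at a mean of at least 50 counts and -0.12 to 0.036 with 1 library left out; elsewhere it was 0.0073 with a loess offset, -0.21 with the replicate block, -0.21 with the crossed block and -0.13 to -0.024 with 1 library left out.

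In the labels same-numbered libraries share a number, and whether they were prepared together is not stated. Their deviations correlated at -0.16 at start sites, -0.23 elsewhere and -0.24 over single regions. Whether they share a batch was not tested. The replicate block gave 376 calls among all start-site sums against 270, and the crossed block, chosen after seeing the data, gave 823. The Cplx2 start-site sum passed under both blocks (adjusted p = 0.0457 and 0.0171) and under 3 further settings, a loess offset, a mean of at least 50 counts and without Fgf13cko replicate 2. Over all genes, start-site calls ranged from 129 (Wald test) and 123 (nuclear scaling) to 425 (loess) and 438 (mean of at least 50), and 0 to 2761 with 1 library left out; calls elsewhere numbered 1025, with 789 by the Wald test, 1914 with the crossed block and 231 to 3819 with 1 left out. Single regions numbered 2168, with 1515 by the Wald test, 3447 with loess, 3306 with the replicate block, 3304 with the crossed block and 138 to 10120 with 1 left out. The calls of all genes thus also changed with the setting. Away from start sites they were 1099 with nuclear scaling, 1233 with loess, 1125 at a mean of at least 50 and 815 within 100 kb. At start sites they were 301 with library size only. The share of higher calls away from start sites was 69.3%, against 55.6% with loess, 57.8% with library size only, 56.4% at a mean of at least 50 and 81.5% with nuclear scaling. The cause was not tested. With 2 libraries a group, calls are sensitive to each library: the sums of Rims2 and Syt6 away from start sites passed without Fgf13cko replicate 2 only.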
